A study of Mus musculus with 20 samples.

Results

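The genes that encode calcium/calmodulin-dependent protein kinase II (CaMKII) and its small inhibitor proteins were followed in mouse heart RNA. The members were the rows of the deposited expression table named Camk2a, Camk2b, Camk2d and Camk2g (the 4 kinase isoforms) and Camk2n1 and Camk2n2 (the 2 inhibitors), 6 of 29339 genes in all. RNA of heart tissue from C57BL/6 mice aged 8 weeks was sequenced after poly-A selection. Libraries labelled TECRL-/- (KO), for a knockout of Tecrl, were compared with libraries labelled wild type (WT). TECRL is a protein of the endoplasmic reticulum, and loss of it in people is linked to catecholaminergic arrhythmia, a disorder of calcium handling. By label there were 5 male WT (WT1, WT2, S7, S8, S9), 5 male KO (S10, S11, S12, TKO5, TKO6), 3 female WT (S1, S2, S3) and 7 female KO libraries (S4, S5, S6, TKO1 to TKO4). The library names fall into 2 series, S with 12 libraries and WT/TKO with 8. The sources used here do not say what the names stand for. No treatment is given for any group. How the knockout allele was made is not given in the sources used here. The methods describe libraries made per mouse, but with fewer mice a group than most groups here have libraries. Whether every library is a separate animal is not given, so p-values measure the spread between these libraries.

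Library totals ran from 12540002 to 20038593 counts. All 6 cardiomyocyte markers were present, with a summed level of 11900 to 16700 FPKM (fragment counts scaled by gene length and library total). Some libraries went against their labels. Tecrl was at 51.5 to 124.5 CPM (counts scaled to a common library size by TMM, the trimmed mean of M values, and not by gene length) in the 20 libraries and was not lower in those labelled KO. S7, S8 and S9, labelled male, had 250.0 to 319.8 CPM of Xist, which is expressed from the inactive X chromosome, and 0 CPM in sum over the Y-linked Ddx3y, Eif2s3y, Uty and Kdm5d. S4, S5 and S6, labelled female, had 182.0 to 202.5 CPM of those Y-linked genes and at most 0.255 CPM of Xist. Within the S series, therefore, genotype label and sex-linked expression cannot be told apart. The summed level of 6 atrial markers was 1923 to 6866 FPKM in S7, S9, S11 and S12, 470 FPKM in S10, 350 FPKM in S6, 244 FPKM in S5 and at most 74.8 FPKM elsewhere.

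CaMKII is an assembly of many kinase subunits, and calmodulin loaded with calcium switches a subunit on by pulling a regulatory segment off its active site. A subunit can then phosphorylate a threonine in that segment of its neighbour, which keeps the kinase active after calcium has fallen. In cardiomyocytes the kinase phosphorylates proteins of calcium release, calcium uptake and excitation. CaMKII delta, encoded by Camk2d, is known as the main cardiac isoform and CaMKII gamma, encoded by Camk2g, as the second. CaMKII alpha (Camk2a) and beta (Camk2b) are best known from neurons. The Camk2a gene also gives rise to alphaKAP, an anchoring protein of muscle without kinase activity, so its reads need not stand for kinase. Camk2n1 and Camk2n2 encode small proteins that bind the activated kinase and block it.

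The counts depend on telling close relatives apart, so a coding stretch that the proteins share nearly whole is shown for each family. For Camk2b, Camk2d and Camk2g this is the regulatory segment of 29 codons around the autophosphorylated threonine, whose codon is in capitals (codon 287 of Camk2b-202 and Camk2d-228, codon 285 of Camk2g-217). Each is joined from 2 coding exons of the plus or minus strand of GRCm38, at chr11:5988117-5989014 (minus), chr3:126797726-126798264 (plus) and chr14:20760160-20760456 (minus).
Camk2b: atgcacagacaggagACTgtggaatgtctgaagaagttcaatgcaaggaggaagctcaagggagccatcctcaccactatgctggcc
Camk2d: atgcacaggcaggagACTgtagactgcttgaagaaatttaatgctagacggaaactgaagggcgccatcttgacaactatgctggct
Camk2g: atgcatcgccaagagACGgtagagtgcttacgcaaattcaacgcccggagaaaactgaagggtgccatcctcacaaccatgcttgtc

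Camk2b and Camk2d differed at 17 of these 87 bases but at 1 of 29 amino acids. Camk2b and Camk2g differed at 25 bases and 2 amino acids, and Camk2d and Camk2g at 24 bases and 3 amino acids. Over the aligned parts of the longest coding sequences, the 4 kinases were identical at 84.6% to 87.1% of amino acids and at 76.8% to 79.8% of bases. The longest run of bases that any annotated transcripts of 2 kinase genes shared exactly was 34, against reads of 150 bases.

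The inhibitors are shown for the 28 codons that open the part of the protein known to inhibit the kinase. These too are joined from 2 coding exons, at chr4:138455309-138456758 (plus) for Camk2n1 and chr16:20620203-20621068 (minus) for Camk2n2.
Camk2n1: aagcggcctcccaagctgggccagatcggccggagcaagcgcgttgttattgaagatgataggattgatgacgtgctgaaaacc
Camk2n2: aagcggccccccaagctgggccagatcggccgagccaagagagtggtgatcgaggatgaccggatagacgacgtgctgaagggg

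The 2 stretches differed at 18 of 84 bases and at 2 of 28 amino acids. Over whole proteins of 78 and 79 residues, Camk2n1 and Camk2n2 were identical at 67.9% of aligned residues, and their transcripts shared no exact run longer than 23 bases.

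In the GENCODE M21 annotation of GRCm38 the 6 genes lie on 6 chromosomes, and all are protein-coding. Camk2d occupies 126596302 to 126846326 on the plus strand of chromosome 3, with 28 annotated transcripts. Camk2b occupies 5969644 to 6066362 on the minus strand of chromosome 11, with 15 transcripts. Camk2g occupies 20734875 to 20794088 on the minus strand of chromosome 14, with 17 transcripts. Camk2a occupies 60925618 to 60988152 on the plus strand of chromosome 18, with 7 transcripts. The inhibitor genes are short, Camk2n1 at 138454314 to 138460123 on the plus strand of chromosome 4 and Camk2n2 at 20619215 to 20621287 on the minus strand of chromosome 16, each with 1 transcript. No exon of the 6 genes overlaps an exon of another gene in this annotation.

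Per length, Camk2n1 was the highest of the 6 genes in all 20 libraries. Its level was 10.2 FPKM in the lowest library (WT1), 14.7 FPKM in the median and 19.8 FPKM in the highest (S12). Camk2d followed with 4.40 to 7.61 FPKM (median 5.46) and Camk2g with 3.95 to 7.55 FPKM (median 4.99). These neighbours overlapped widely, and Camk2d was above Camk2g in 15 of 20 libraries. Camk2a came next at 1.74 to 5.02 FPKM (median 3.21). It was below Camk2d in 19 libraries and below Camk2g in 18, the exceptions being at its highest levels. Camk2n2 at 0.774 to 2.11 FPKM (median 1.36) and Camk2b at 0.568 to 1.80 FPKM (median 1.23) were lowest. Their ranges overlapped. Camk2b was the higher in 7 libraries, which were S10, WT1, TKO1, TKO2, TKO4, TKO5 and TKO6, so S10 was the only S library among them. The full order Camk2n1, Camk2d, Camk2g, Camk2a, Camk2n2, Camk2b held in 8 of 20 libraries.

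The length used for each gene sets these levels. The deposited FPKM divides by the summed length of all annotated exons, which is 22493 bases for Camk2d although its longest protein-coding transcript has 5524. For Camk2b the lengths are 9125 and 4023 bases, for Camk2a 7465 and 4970, for Camk2g 6401 and 3703. For both inhibitors they are the same, 4444 bases for Camk2n1 and 1291 for Camk2n2. By raw counts Camk2d was far the most abundant kinase, with 1400 to 2360 counts per library against 403 to 651 for Camk2g, 175 to 680 for Camk2a and 78 to 268 for Camk2b.

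Isoform shares were therefore computed on both scales. Camk2d held 29.3% to 44.8% of the summed FPKM of the 4 kinases (median 35.5%), but 56.2% to 72.1% of their summed counts (median 63.5%). With the longest coding length of each gene as divisor it held 56.7% to 72.7%, so Camk2d led in every library on that scale. Camk2g held 28.8% to 51.9% of summed FPKM, and 13.3% to 27.1% with coding lengths. Its share was highest in S3 on all of these scales. Camk2a held 11.96% to 30.7% of summed FPKM and Camk2b 3.88% to 11.2%. Camk2b was the smallest share in every library.

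**Figure D1:**
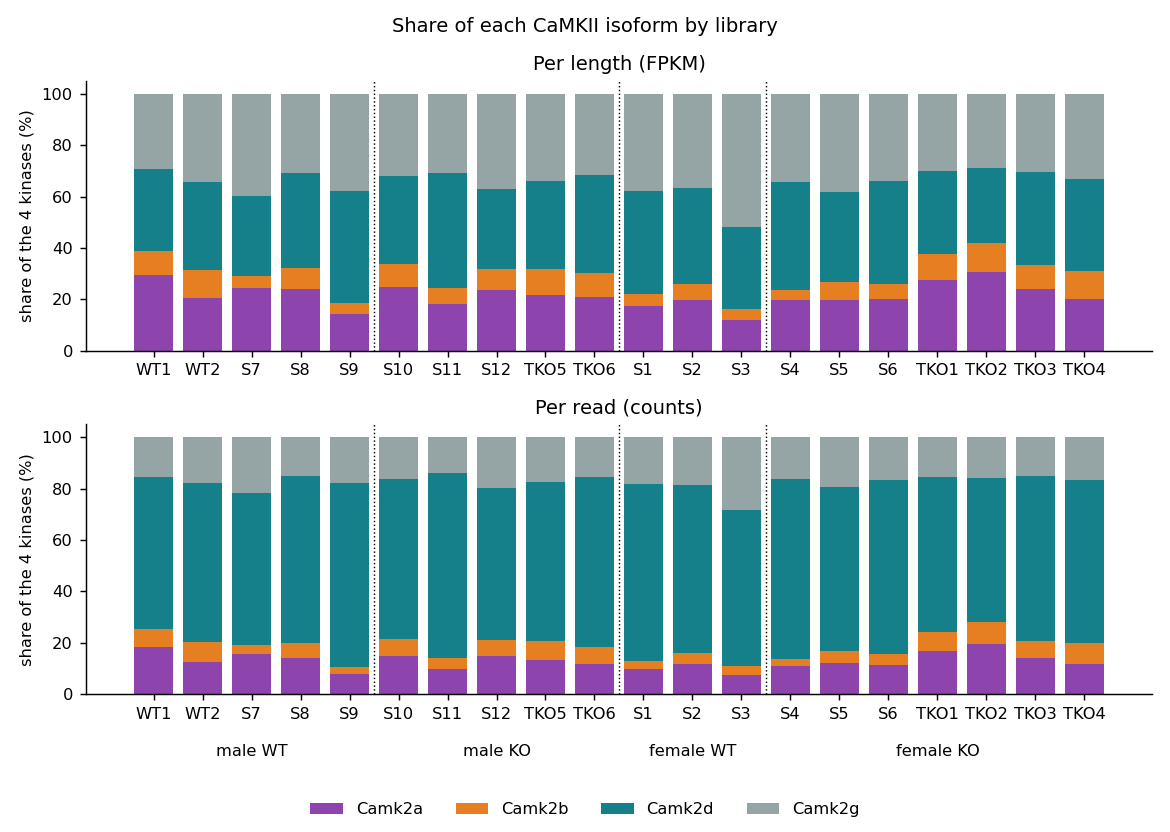
Share of each kinase isoform in the sum of the 4 kinase genes (%), 1 bar per library, from FPKM (top) and from raw counts (bottom). Libraries stand in their labelled groups, split by dotted lines, and the Camk2d share is larger in every library per read (56.2% to 72.1%) than per length (29.3% to 44.8%).

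The labels set KO against WT libraries in each labelled sex. The Camk2d share of summed FPKM was 36.5% ± 5.27 (SD, n = 5) in libraries labelled male KO and 35.5% ± 5.02 (SD, n = 5) in male WT, a difference of 1.01 percentage points (exact permutation test, two-sided, p = 0.722). In libraries labelled female it was 35.9% ± 4.27 (SD, n = 7) in KO and 36.4% ± 4.30 (SD, n = 3) in WT, a difference of -0.508 percentage points (exact permutation test, two-sided, p = 0.85). Both differences were smaller than the SD within groups. Libraries were permuted without regard to series, although all female WT libraries are of the S series. The smallest p these designs allow is 0.00794 and 0.00833. Within the S series alone the differences were -0.421 and 2.70 points, where 3 against 3 libraries allow no p below 0.1.

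Among libraries labelled male, none of the 6 genes was called between KO and WT at an adjusted p under 0.05. Camk2d was at 138.8, 126.8, 118.1, 109.5 and 136.2 CPM in WT1, WT2, S7, S8 and S9, and at 122.1, 162.7, 114.5, 132.1 and 149.7 CPM in S10, S11, S12, TKO5 and TKO6. The groups overlapped, and the fitted log2 fold change (KO minus WT, library series as covariate, edgeR quasi-likelihood test) was 0.10 with an SE of 0.125 (adjusted p = 0.893). Its 95% interval ran from -0.17 to 0.38, so a change of Camk2d of the size of 1 log2 unit lies outside it. Camk2g ran from 25.8 to 42.8 CPM in WT and from 31.6 to 38.6 CPM in KO, with a log2 fold change of -0.01 (95% interval -0.30 to 0.28). Camk2a ran in WT from 14.7 CPM in S9 to 42.7 CPM in WT1, a range that held all KO values (21.7 to 29.5 CPM), and its log2 fold change was -0.01 (95% interval -0.49 to 0.47).

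Camk2b was at 16.8 and 16.5 CPM in WT1 and WT2 but at 7.04, 9.78 and 5.50 CPM in S7, S8 and S9. In male KO it was at 12.8, 9.56 and 11.8 CPM in S10, S11 and S12 and at 16.1 and 14.9 CPM in TKO5 and TKO6. In both genotypes the S libraries were the lower ones, without overlap. With so few libraries on each side, the share of all genes that separate in this way was not computed. Between genotypes the fitted log2 fold change was 0.31 with an SE of 0.192 (95% interval -0.11 to 0.73, edgeR adjusted p = 0.882). It was 0.61 in the S libraries alone (edgeR adjusted p = 0.968), and its sign turned without S7, S8 and S9 (-0.10), the libraries whose sex-linked genes went against their label.

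The inhibitors were not called either. Camk2n1 was at 51.8, 64.4, 71.3, 71.1 and 70.8 CPM in WT1, WT2, S7, S8 and S9, and at 71.0, 72.2, 79.5, 71.0 and 71.4 CPM in S10, S11, S12, TKO5 and TKO6. All KO values lay at the upper end of the WT range or above it, with a log2 fold change of 0.14 (SE 0.0967, edgeR adjusted p = 0.882). Camk2n2, counted only 17 to 42 times per library over all 20 and so the least precise of the 6, ran from 1.32 to 2.39 CPM in WT and from 1.33 to 2.52 CPM in KO. Its log2 fold change was 0.07 with a 95% interval of -0.52 to 0.66.

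Against this stood a comparison that called few genes of any kind. Of 14481 genes tested in libraries labelled male, edgeR called 0% at an adjusted p under 0.05, 4.75% reached an unadjusted p under 0.05, and 2.09% combined that with an absolute log2 difference of at least 0.58. DESeq2 called 12 genes at an adjusted p under 0.05. None of the 6 members was among the genes past any of these limits in edgeR, and DESeq2 called none of the 6.

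**Figure D2:**
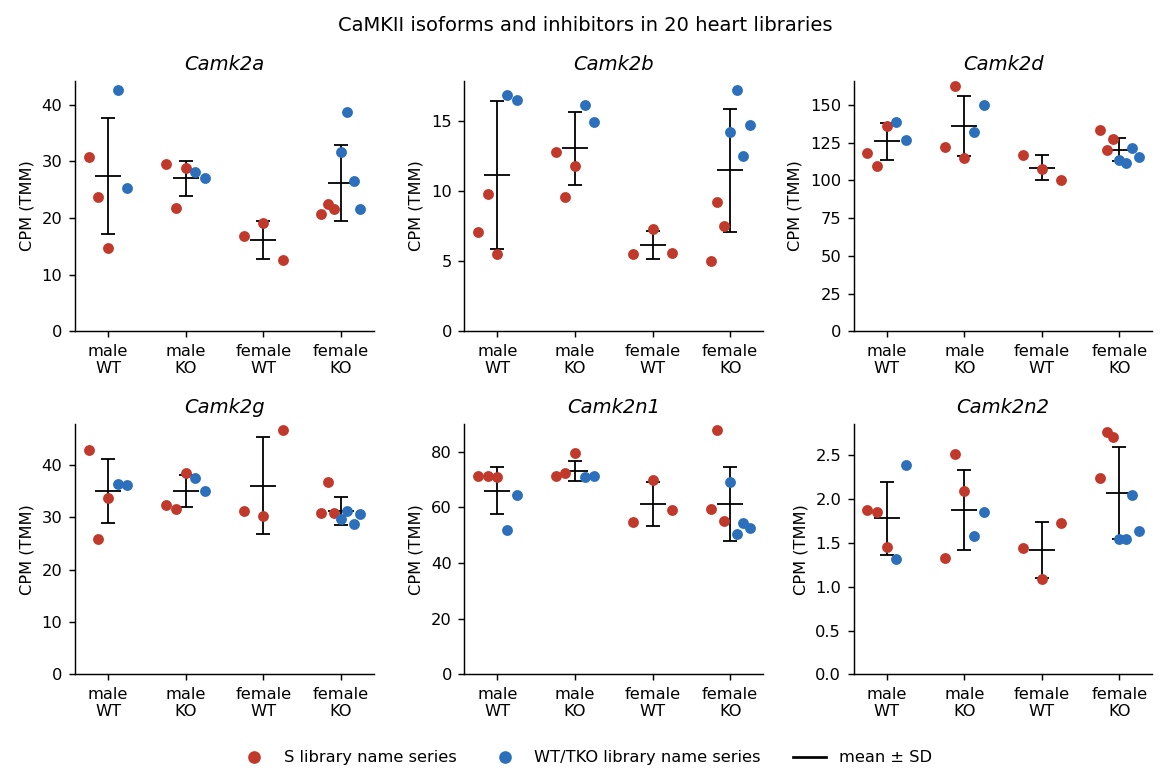
CPM of the 6 genes (vertical axes, TMM-scaled, from 0) by labelled group, each point 1 library, coloured by library name series, with the mean and SD of each group in black. Camk2b separates by series within male WT, male KO and female KO, and the groups of Camk2d, Camk2g and Camk2n1 overlap. The share of all genes that separate by series within these groups was not computed.

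All 3 female WT libraries carry S names, so once series is a covariate the genotype contrast rests on S1, S2 and S3 against S4, S5 and S6, which also differ in sex-linked expression. Camk2a was at 16.8, 19.1 and 12.6 CPM in S1, S2 and S3. In the 7 KO libraries it ran from 20.8 CPM (S4) through a median of 22.5 to 38.7 CPM (TKO2), so the groups did not overlap, as was so for 4.98% of 14511 genes tested. The fitted log2 fold change of Camk2a was 0.41 with an SE of 0.208 (95% interval -0.04 to 0.86, edgeR adjusted p = 0.321). It did not pass the threshold. Without S3, the lowest library, it was 0.26 (edgeR adjusted p = 0.775), and without S4, S5 and S6 and the series covariate it was 0.88 (edgeR adjusted p = 0.0623).

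Camk2n2 showed the largest fitted change of the 6 in these libraries. It was at 1.44, 1.08 and 1.72 CPM in S1, S2 and S3, at 2.23, 2.77 and 2.70 CPM in S4, S5 and S6, and at 1.54 to 2.05 CPM in TKO1 to TKO4. S4, S5 and S6 were highest, and the KO range overlapped that of WT through the TKO libraries. The log2 fold change was 0.85 with an SE of 0.288 (95% interval 0.23 to 1.47, unadjusted p = 0.011 and adjusted p = 0.198 in edgeR). Without S4, S5 and S6 and without the series covariate it was 0.27 (adjusted p = 0.588). Between these groups of libraries, adipocyte markers (4) summed to 563 to 892 FPKM in WT and 275 to 589 FPKM in KO, macrophage markers (4) to 90.7 to 134 and 56.2 to 127 FPKM, and red blood cell markers (4) to 287 to 1100 and 231 to 757 FPKM. S2 had 30.4% mitochondrial counts, the highest of the 20 libraries. Their part in the differences among female libraries was not tested.

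Camk2d was at 117.1, 107.5 and 100.5 CPM in S1, S2 and S3 and ran from 111.7 to 133.3 CPM (median 119.8) in the 7 KO libraries, with a log2 fold change of 0.22 (95% interval -0.03 to 0.47, edgeR adjusted p = 0.338). Camk2g was at 31.2, 30.2 and 46.7 CPM in S1, S2 and S3 against 28.7 to 36.8 CPM in KO, so that S3 stood alone above both groups. Its log2 fold change was -0.14 with all libraries and 0.09 without S3. Camk2n1 had means of 61.1 CPM ± 7.83 (SD, n = 3) in WT and 61.2 CPM ± 13.3 (SD, n = 7) in KO, where S5 reached 87.8 CPM. Its log2 fold change was 0.13 with S5 and -0.10 without it.

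Camk2b was at 5.51, 7.27 and 5.60 CPM in S1, S2 and S3, at 4.98, 9.20 and 7.53 CPM in S4, S5 and S6, and at 14.2, 17.2, 12.5 and 14.7 CPM in TKO1 to TKO4. The S libraries of both genotypes overlapped and every TKO library lay above them, a pattern whose share among all genes was not computed. With series as covariate the log2 fold change (KO minus WT) was 0.23 (SE 0.23, edgeR adjusted p = 0.63). Single libraries moved this value, to 0.02 with S5 left out, 0.14 with S1, 0.38 with S2 and 0.44 with S4 left out, and it was not called in any fit that left out 1 library. Without S4, S5 and S6, with WT then all S and KO all TKO and no series covariate, it was 1.264 (SE 0.187, edgeR adjusted p = 0.00998). In that second form genotype and library series cannot be told apart.

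No member was called among libraries labelled female at an adjusted p under 0.05, at which edgeR called 8 genes (0.0551% of 14511). At an unadjusted p under 0.05 stood 17.9% of genes, and 9.99% had an absolute log2 difference of at least 0.58 as well. Camk2n2 was the single member, 1 of 6, past these unadjusted limits. The difference between the genotype effects of both labelled sexes was tested by an interaction term over all 20 libraries. It was called for 0% of 15187 genes by edgeR at an adjusted p under 0.05, with 15.6% at an unadjusted p under 0.05 and 19 genes called by DESeq2. None of the 6 members was called, or reached an unadjusted p under 0.05 in edgeR. The difference for Camk2n2 (male effect minus female effect) was -0.62 with an SE of 0.371 (edgeR adjusted p = 0.406) and that for Camk2d -0.03 with an SE of 0.16 (edgeR adjusted p = 0.929).

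**Figure D3:**
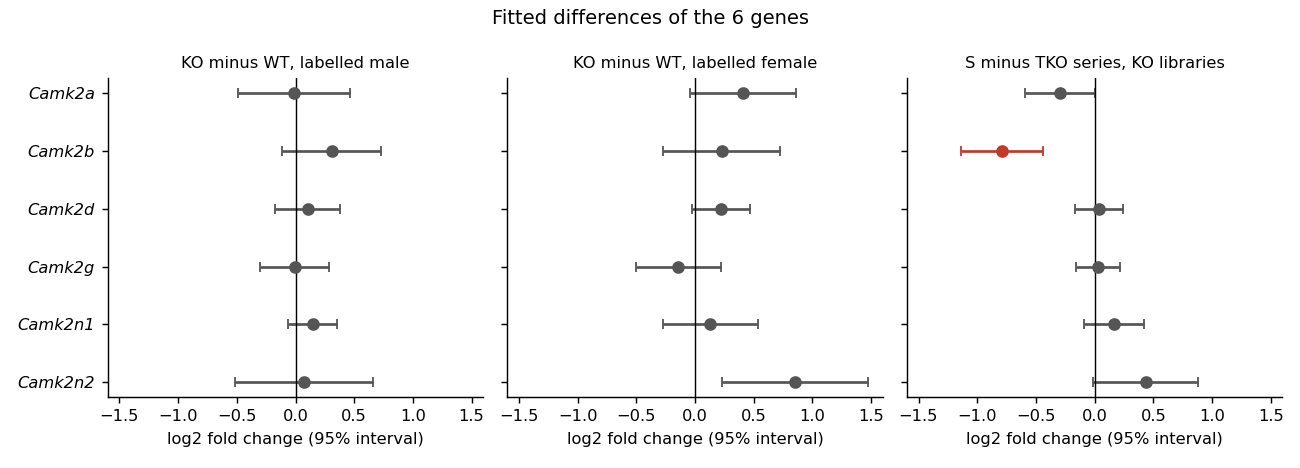
Fitted log2 fold change of each gene with its 95% interval (horizontal axes) in 3 comparisons, from edgeR, with red for an adjusted p under 0.05. Camk2b in the series comparison (-0.79, interval -1.14 to -0.44) is the single red point.

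Camk2b was then compared between the library name series, which also differ in sex-linked expression among KO libraries. Among the 12 KO libraries it was at 12.8, 9.56 and 11.8 CPM in S10, S11 and S12 and at 4.98, 9.20 and 7.53 CPM in S4, S5 and S6, against 16.1 and 14.9 CPM in TKO5 and TKO6 and 14.2, 17.2, 12.5 and 14.7 CPM in TKO1 to TKO4. Only S10 reached the range of the TKO libraries, lying just above TKO3. With labelled sex as covariate, Camk2b was lower in S by 0.79 on the log2 scale (log2 fold change -0.79, SE 0.163, 95% interval -1.14 to -0.44, edgeR adjusted p = 0.00813). At that limit 11.2% of 14540 genes were called, 5.76% in the same direction, and Camk2b was 1 of 6 members called.

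The other members did not pass in the series comparison. Camk2a was lower in S by 0.30 (95% interval -0.60 to 0.00162, edgeR adjusted p = 0.182), with 20.8 to 29.5 CPM in S and 21.6 to 38.7 CPM in TKO. It was -0.04 in libraries labelled male alone, -0.47 in those labelled female alone, -0.04 without S4, S5 and S6 and -0.20 without TKO2, and was not called in any of these fits (edgeR adjusted p from 0.124 to 0.941). Camk2n2 was at 1.33 to 2.77 CPM in S and 1.54 to 2.05 CPM in TKO, a log2 fold change of 0.43 (95% interval -0.01 to 0.88, edgeR adjusted p = 0.19). The log2 fold changes of Camk2d, Camk2g and Camk2n1 were 0.04, 0.03 and 0.16, with adjusted p from 0.392 to 0.863 in edgeR. The unadjusted p was under 0.05 for 27.7% of genes, 11% had an absolute log2 difference of at least 0.58 as well, and Camk2b was again the single member past each of these limits.

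The size of the Camk2b difference depended on which libraries entered. It was -0.44 among KO libraries labelled male alone (edgeR adjusted p = 0.304) and -1.04 among those labelled female alone (edgeR adjusted p = 0.0166). The difference between these was 0.59 with an SE of 0.294 and did not pass (edgeR unadjusted p = 0.0626, adjusted p = 0.514). Without S4, S5 and S6 it was -0.44 and not called (edgeR adjusted p = 0.238). All 6 S libraries labelled KO expressed Y-linked genes, but of the TKO libraries only TKO5 and TKO6 did. With TKO1 to TKO4 and the covariate for labelled sex left out, so that all 8 libraries expressed them, Camk2b was at -0.74 (SE 0.282, edgeR adjusted p = 0.31) in a fit that called 2 genes in all.

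The WT libraries labelled male, which that comparison did not use, gave a difference of the same sign. Camk2b was lower in S7, S8 and S9 than in WT1 and WT2 by 1.15 (log2 fold change -1.15, SE 0.281, 95% interval -1.81 to -0.48). With 5 libraries it was not called (unadjusted p = 0.00456, adjusted p = 0.363 in edgeR), in a fit that called 0.00729% of 13712 genes at an adjusted p under 0.05 and had 10.6% at an unadjusted p under 0.05. S7, S8 and S9 also differ from WT1 and WT2 in sex-linked expression, so the part of each cannot be told apart.

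As a share of the summed FPKM of the kinases, Camk2b held 3.88% to 8.85% in the 12 S libraries and 9.26% to 11.2% in the 8 WT/TKO libraries. These ranges did not overlap, but how many other genes separate in this way was not computed. By CPM the Camk2b ranges of the series did overlap, with S10 at 12.8 and TKO3 at 12.5 CPM. The Camk2a shares, 11.96% to 24.9% in S and 20.02% to 30.7% in WT/TKO, overlapped. So did those of Camk2d, 31.2% to 44.8% and 29.3% to 38.3%. The summed kinase level was 11.8 to 18.8 FPKM in S and 14.9 to 17.0 FPKM in WT/TKO.

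Marker levels of other cell types were set beside the series comparison, without a test. Among KO libraries the summed level of 4 macrophage markers was 65.8 to 127 FPKM in S and 50.7 to 70.3 FPKM in TKO. That of 6 atrial markers was 47.0 to 6870 FPKM in S and 33.5 to 52.3 FPKM in TKO. The 7 markers of neurons and glia, in which Camk2a and Camk2b are best known, summed to 2.01 to 7.94 FPKM in S, with Th at 0, and to 2.55 to 3.69 FPKM in TKO. The S range of these markers spanned the TKO range. The 6 skeletal muscle markers were at most 0.978 FPKM in sum, with Myh1, Myh2, Myh4 and Myf6 at 0 in TKO. Without S11 and S12, the KO libraries highest in atrial markers, the Camk2b difference was -0.81 (edgeR adjusted p = 0.0149). Red blood cell markers (4) summed to 388 to 2210 FPKM in S and 186 to 517 FPKM in TKO, and adipocyte markers (4) to 386 to 589 FPKM in S and 275 to 423 FPKM in TKO. Fibroblast markers (4) summed to 117 to 186 FPKM in S and 100 to 137 FPKM in TKO, smooth muscle markers (5) to 61.3 to 155 and 87.5 to 130 FPKM, and endothelial markers (4) to 132 to 213 and 159 to 240 FPKM. Cardiomyocyte markers (6) summed to 13400 to 16200 FPKM in S (median 14600) and 14400 to 16700 FPKM in TKO (median 15400). The ranges of all these lists overlapped between the series. For atrial markers S4 was the only S library within the TKO range, and for macrophage markers S10 was the only one. The share of mitochondrial counts was 19.95% to 22.6% in KO of S and 21.8% to 25.7% in TKO, and among male WT it was 15.3% to 20.6% in S7, S8 and S9 against 24.9% and 25.1% in WT1 and WT2. The part of mitochondrial share or of any of these cell types in the Camk2b difference was not tested. In bulk RNA, fewer cells of a type and less RNA per cell cannot be told apart.

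**Figure D4:**
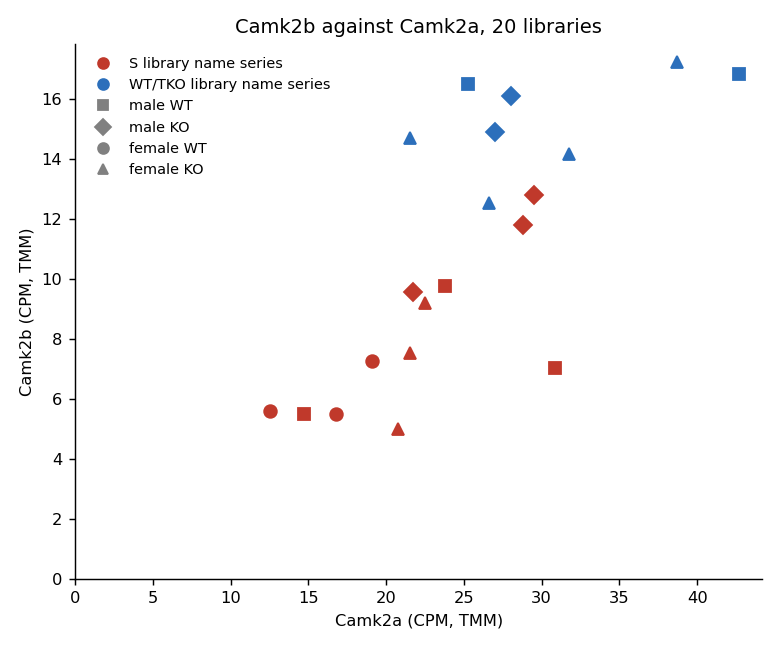
Camk2b (vertical) against Camk2a (horizontal) in CPM, each point 1 of 20 libraries, with colour for library name series and shape for labelled group. The WT/TKO libraries lie between 12.5 and 17.2 CPM of Camk2b, above all S libraries but S10.

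The kinase genes did not vary as a unit. Over the 20 libraries, log2 CPM of Camk2a and Camk2b had a Pearson r of 0.767, and of 0.72 within the 12 S libraries. The other kinase pairs had r from -0.094 to 0.159. Camk2n1 and Camk2n2 had r = 0.212. Within the S series Camk2b and Camk2n1 had r = 0.633, against -0.0754 over all 20. These values are descriptions: the libraries share series, labels and, for any pair, the same total as divisor.

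The genes whose log2 CPM followed each member most closely over the 20 libraries, among 15186, were listed by Pearson r. For Camk2a they were Mlh3 (0.878), Sspn (0.872) and Hdac11 (0.868). For Camk2b they were Gm32369 (0.835), Xpnpep3 (0.83) and Gm1821 (0.828), whose r within the S series fell to 0.536 to 0.625. For Camk2d they were Klhl40 (0.789), Asb5 (0.781) and Pprc1 (0.763), with 0.758 to 0.839 within the S series. For Camk2g they were Trip6 (0.765), Nup93 (0.745) and Pou6f1 (0.704). For Camk2n1 they were H3f3b (0.74), Plekha3 (0.733) and Rfc3 (0.722), and for Camk2n2 Cptp (0.768), Stard3nl (0.665) and Ptpro (0.661).

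Inhibitor RNA was set against kinase RNA per length. The summed FPKM of Camk2n1 and Camk2n2 was 0.653 times that of the 4 kinases in WT1, 1.04 times in the median library and 1.45 times in S5. It was 1.05 ± 0.259 (SD, n = 5) in male WT, 1.08 ± 0.0848 (SD, n = 5) in male KO, 1.12 ± 0.144 (SD, n = 3) in female WT and 1.03 ± 0.22 (SD, n = 7) in female KO. The largest difference among these means was below the SD of each group except male KO. Among female libraries the ratio was 1.04, 1.29 and 1.04 in S1, S2 and S3. In KO it was 1.07, 1.45 and 1.02 in S4, S5 and S6 and 0.739 to 1.08 in TKO1 to TKO4. By series it was 1.02 to 1.45 in S and 0.653 to 1.08 in WT/TKO. Camk2n2 made up 5.07% to 14.5% of inhibitor FPKM, highest in S6. The ratio depends on the gene lengths used as divisors.

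The genes around CaMKII were read from 7 lists of 68 genes, of which 66 were in the table under these symbols (not Phb1 and Oga) and 62 were tested. None of the 62 was called between genotypes in either labelled sex or in the interaction. At an unadjusted p under 0.05 stood 4 (6.45%) in libraries labelled male, 12 (19.4%) in those labelled female and 16 (25.8%) in the interaction, near the shares of all genes in the first 2 and above the 15.6% of the third. The median log2 fold change of the 62 was -0.13 in male and 0.12 in female libraries, against -0.01 and -0.02 over all genes tested. Between series among KO libraries 2 were higher in S and 5 lower, 11.3% of the 62 against 11.2% of all genes.

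Calmodulin, the activator, is encoded by 3 genes with identical protein. Calm2 at a mean of 83.5 FPKM and Calm3 at 48.6 FPKM were highest of the 6 genes of this list. Calm2 had a log2 fold change (KO minus WT) of -0.24 in male and 0.14 in female libraries, and rose by 0.41 (SE 0.104, edgeR adjusted p = 0.0226) in S against TKO. Cabp1, a calmodulin-like calcium sensor, had the largest value in male libraries, 0.51 with an SE of 0.249 (edgeR adjusted p = 0.882). Of the other calmodulin-dependent kinases, 0 of 8 tested passed in any comparison. Mylk3, the cardiac myosin light chain kinase, was at 83.1 FPKM with -0.30 in male and 0.51 in female libraries (edgeR adjusted p = 0.882 and 0.21). Camk1 was at 8.94 FPKM with 0.10 and 0.07, and Camkk1, an activating kinase of CaMKI, had 0.35 in male libraries with an SE of 0.425.

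Of the phosphatase list, which holds enzymes that remove CaMKII marks and their regulators, 0 of 12 passed in any comparison with all its libraries. Ppp1ca, a catalytic subunit of protein phosphatase 1, was at 107 FPKM with log2 fold changes of -0.28 in male and 0.52 in female libraries (edgeR adjusted p = 0.882 and 0.195). Ppp1r2, an inhibitor of that enzyme, was at 42.5 FPKM with -0.15 and 0.12. Ppp1r1a, encoding inhibitor 1, had the largest value in male libraries, -0.57 with an SE of 0.457. Among redox, sugar and anchor regulators 1 of 8 passed, in the series comparison. Cybb, the NADPH oxidase subunit of phagocytes, rose in S by 1.04 (SE 0.165, edgeR adjusted p = 0.00226), beside the macrophage markers given above. Msrb2, a methionine sulfoxide reductase, was at 30.0 FPKM with 0.13 in male and 0.46 in female libraries, and Ogt, which adds the sugar O-GlcNAc, at 13.6 FPKM with 0.19 and -0.20. Sptbn4, the spectrin that anchors CaMKII at the intercalated disc, had -0.86 in male libraries with an SE of 0.617 at a level of 0.0925 FPKM.

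Of 13 substrates tested, 4 fell in S against TKO and none rose, where 5.76% of all genes tested were called lower in S. The list was chosen with earlier results of these data known, so this count is not an independent test. Ttn, encoding the sarcomeric spring titin, fell by 0.55 (SE 0.107, edgeR adjusted p = 0.00584). Mybpc3, the myosin-binding protein C of the thick filament at 523 FPKM, fell by 0.54 (SE 0.132, adjusted p = 0.0187). Ryr2, the calcium release channel and also among the cardiomyocyte markers given above, fell by 0.41 (SE 0.112, edgeR adjusted p = 0.0323). Cacna1c, the pore of the L-type calcium channel, fell by 0.37 (SE 0.0897, adjusted p = 0.0173). For Ttn, Mybpc3 and Ryr2 the S and TKO libraries did not overlap, as was so for 5.56% of genes tested. The median log2 fold change of the 13 substrates was -0.37, against -0.01 over all genes. Pln, the calcium pump inhibitor phospholamban at 297 FPKM, had log2 fold changes of 0.17 in male libraries, 0.36 in female libraries and 0.18 between series, none called. Kcnd2, a channel of the transient outward current, had -0.70 in male libraries (SE 0.288, edgeR adjusted p = 0.882) and 0.64 in female libraries (SE 0.243, edgeR adjusted p = 0.219).

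Of 8 regulators of splicing, some of which shape Camk2d transcripts, 1 passed. Rbm24 at 55.1 FPKM fell in S by 0.46 (SE 0.0978, edgeR adjusted p = 0.00918), and had -0.46 in male libraries (SE 0.163, edgeR adjusted p = 0.882). Srsf2 was at 23.2 FPKM, with 0.32 between series (edgeR adjusted p = 0.0573). Of 8 nuclear factors downstream none passed. Srf at 22.7 FPKM had -0.57 in male and 0.54 in female libraries, and Mef2d at 20.2 FPKM had -0.14 and 0.17. Of the 7 pathway genes called between series, edgeR called 0 without S4, S5 and S6. It also called 0 without TKO1 to TKO4 and the covariate for labelled sex. In these fits 13 of 61 and 7 of 62 tested pathway genes had an unadjusted p under 0.05. These counts were not set against the shares of all genes in the same fits. All 7 kept the sign of their log2 fold change in both fits. Rbm24 was at -0.50 and -0.35, Mybpc3 at -0.43 and -0.44, Ttn at -0.37 and -0.41, Cybb at 0.89 and 1.69, Ryr2 at -0.26 and -0.25, Cacna1c at -0.29 and -0.22 and Calm2 at 0.27 and 0.30, with larger SE than in all 12 libraries for each of them. Without S11 and S12 the count was 11 of 61 tested pathway genes, 5 higher and 6 lower, all 7 among them. It was not set against the share of all genes called in that fit. Ppp2ca, a catalytic subunit of protein phosphatase 2A named after its value was seen, was then called higher in S (0.29, edgeR adjusted p = 0.0224), as was Srsf2 (0.39, edgeR adjusted p = 0.037). Of the substrates, Pln was called higher in S (0.33, edgeR adjusted p = 0.0375) and Kcnd3, a potassium channel named after its value was seen, lower (-0.67, edgeR adjusted p = 0.0438).

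**Figure D5:**
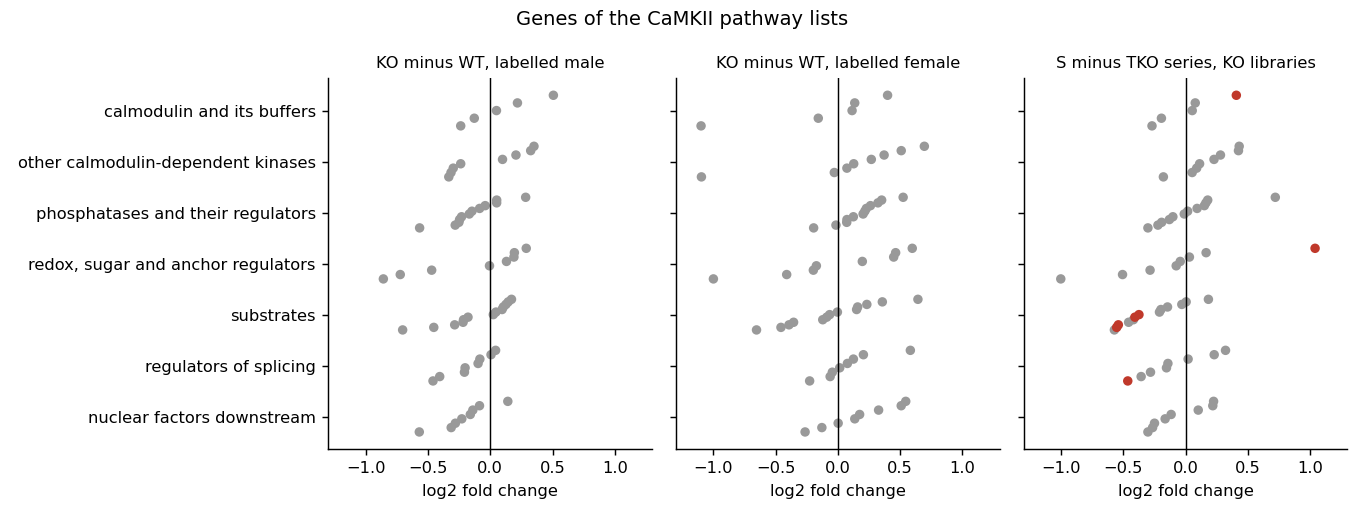
Log2 fold changes (horizontal axes) of the 62 tested genes of the 7 pathway lists in 3 comparisons, each point 1 gene, with red for an edgeR adjusted p under 0.05. No point is red between genotypes, and 7 are red between series, 4 of them substrates lower in S.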

How the data were processed

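Heart RNA of 20 libraries was measured by poly-A RNA-seq. The authors deposited 1 table of whole-number read counts per Ensembl gene and library without normalization, beside FPKM made by the authors. The FPKM scales each count by a single gene length and by the sum of the library. For the 6 genes that length equals the summed exon length in GENCODE M21. The submitters' processing notes name HISAT2, HTSeq 0.6.1p2, DESeq2 1.26.0 and GRCm38. Strandedness is not given in the sources used here. Every value column was matched to a sample by name. Groups came from the labels alone.

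Counts were tested with edgeR 4.0.16 (TMM, quasi-likelihood test, at least 10 counts in at least 3 libraries of the comparison, Benjamini-Hochberg adjustment over all genes tested), separately for each labelled sex (covariate: library series), and between series among KO libraries with labelled sex as covariate. An unadjusted p under 0.05 with a log2 difference of 0.58 or more in either direction, the limits of the study's methods, was counted too. The Camk2d share was compared by an exact permutation test that did not take library series into account. Alternatives used DESeq2 1.42.0, limma 3.58.1 on log2(FPKM + 1), other normalization, no filter, and left out libraries. R 4.3.3, Python 3.11.15, scipy 1.17.1, Biopython 1.88 and matplotlib 3.10.9 were used. The scripts were tested on simulated data. All 44 pairs of libraries within groups were compared for duplicates, and none was identical.

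The members, the gene lists and the tests were chosen with earlier results of these data known. Named genes were the 6 members, list genes called in a comparison, the 2 genes of highest mean FPKM and the 1 of largest absolute log2 fold change in male libraries of each list, the 3 genes most correlated with each member, and Tecrl and the sex-linked genes.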

Additional observations from a re-analysis of the deposited data

Results flagged for a closer look

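Among 30 sets of values (CPM of the 6 genes and FPKM shares of the 4 kinases in the labelled groups of 5 to 7 libraries), 2 had a library far from the others by Dixon's ratio, where chance gives about 1 in 20. Camk2g was at 36.8 CPM in S5, against 28.7 to 31.2 CPM in the other female KO libraries. Camk2n1 was at 79.5 CPM in S12, against 71.0 to 72.2 CPM in the other male KO libraries. S5 and S12 had atrial marker sums of 244 and 1923 FPKM, and the part of these in the values was not tested.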

How the results depend on the processing

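No paired analysis was possible because the library names give no replicate numbers that pair libraries of the compared groups. Of 474 member values under alternatives, 418 kept direction and side of the adjusted p threshold, 52 turned sign (none called) and 4 changed call: Camk2b female without S4, S5 and S6 (called), and Camk2b between series in male KO alone, without S4, S5 and S6 and without TKO1 to TKO4 and the sex covariate (not called). The alternatives that left out S4 to S6, S7 to S9, S11 and S12 or TKO1 to TKO4 were chosen after the data were seen, as was the coding length. The cause of these changes was not tested.

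Genes called between genotypes in male libraries numbered 12 with DESeq2, 59 with no filter, 5 in S libraries alone, 2 in WT and TKO libraries alone, and 0 to 1 leaving out 1 library (1 without TKO6). In female libraries they numbered 383 with DESeq2, 1110 with no filter, 2 without the series covariate, 366 without S4, S5 and S6, and 1 (without S6) to 2409 (without S1) leaving out 1 library, with more than 1.5 times change also without S5 or TKO2. Between series they numbered 2507 with no filter, 7 in male KO alone, 924 in female KO alone, 71 without S4, S5 and S6, 2 without TKO1 to TKO4 and the sex covariate, and 752 (without S6) to 1740 (without TKO4) leaving out 1 library, with 919 without S5. The interaction had 19 with DESeq2 and 0 to 1127 (without S1) leaving out 1 library.

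In male libraries, Camk2a was 0.0377 with upper-quartile normalization, 0.0218 with limma, 0.21 in S alone, -0.30 in WT and TKO alone, -0.31 without S7 to S9, -0.34 with the Y-linked sum in the model and -0.15 to 0.18 leaving out 1 library. Camk2g was 0.0340 with upper-quartile normalization, 0.000176 with limma, 0.00237 in WT and TKO alone, 0.00261 without S7 to S9 and -0.10 to 0.11 leaving out 1. Camk2b was 0.61 in S alone, -0.10 in WT and TKO alone and without S7 to S9 and -0.13 with the Y-linked sum in the model. Camk2n2 was -0.10 in WT and TKO alone and without S7 to S9, -0.0892 with that sum, and -0.0530 to 0.23 leaving out 1. In female libraries Camk2n1 was -0.11 without S4 to S6 and -0.10 to 0.26 leaving out 1, and Camk2g -0.25 to 0.0905. Between series Camk2d and Camk2g were -0.0752 and -0.0794 in male KO alone, -0.0781 and -0.0831 without S4 to S6, -0.12 and -0.12 without TKO1 to TKO4 and the sex covariate, where Camk2n1 was -0.0161, and leaving out 1 library they ran from -0.0179 to 0.0844 and from -0.0290 to 0.0657. In the interaction Camk2b was -0.67 without the series covariate, and leaving out 1 library Camk2b ran from -0.13 to 0.16, Camk2d from -0.10 to 0.0175, Camk2g from -0.0242 to 0.33 and Camk2n1 from -0.0737 to 0.18. Camk2b between series ran from -0.88 to -0.64 leaving out 1 library and was called each time. The Camk2d share difference was -0.421 points (male) and 2.70 points (female) in S alone, and -1.07 (without S11) to 3.01 (without S9) and -2.83 (without S3) to 1.42 (without S1) leaving out 1 library.

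The low counts of Camk2n2 (17 to 42 per library) limit its precision.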
